A study of Mus musculus with 2 samples.

Results

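Glycolysis and hypoxia genes, 34 of the 32285 features counted, were followed gene by gene through the cell classes of MC38 tumours from mice given vehicle or LC427. The genes were taken by symbol and comprised 4 glucose and lactate transporters, 16 glycolytic enzymes, 3 regulators of flux and 11 genes of the hypoxia response. All 34 symbols were found, 33 of them under a single gene ID. Aldoa had 2 IDs, whose counts were added. MC38, a mouse colon carcinoma line, was implanted in C57BL/6 female mice, and the tumours of both groups were taken on day 14. The groups differ by LC427, known here only by its code name, and the title of the series speaks of targeting LRBA and of CTLA4 degradation. Both groups went through removal of dead cells and selection of CD45-carrying cells, the blood-derived ones, on beads before capture with 10x 5′ chemistry. Dose, schedule and how many mice each library stands for are not given in the sources used here.

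Each group had 1 library, so no test between groups was possible and no difference has a replicate check. Levels are UMIs of a gene (tagged RNA molecules) per 1000000 UMIs of the cell class, written CPM. Intervals are at 95% and hold counting error alone. A gene was measured in a class if it had at least 20 UMIs over both libraries, and it was called lower or higher if the ratio of LC427 to vehicle was past 1.5-fold. The libraries held 33711726 UMIs for vehicle and 28732435 for LC427, and 5025 and 6008 cells were used. LC427 cells were shallower, with a median of 2356 UMIs against 3496 in vehicle, and had a lower median mitochondrial share (1.4% against 2.24%). There were 47 cell barcodes shared by both libraries.

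Glycolysis splits glucose into pyruvate. Hexokinases trap glucose in the cell, phosphofructokinase sets the pace, Gapdh oxidises the triose phosphate, and lactate dehydrogenase turns pyruvate into lactate so that the chain can run with little oxygen. When oxygen is short, the transcription factor subunit Hif1a escapes degradation and raises the transcription of many of these enzymes, together with genes such as Vegfa and Bnip3. Macrophages of poorly supplied tumour regions are known for this programme, and activated T cells also rely on glycolysis.

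Cells were clustered without the 34 genes and without other genes of the pathway. Classes with at least 100 cells in each library were compared, namely 3431 vehicle and 4042 LC427 macrophage-like cells, 142 vehicle and 284 LC427 conventional dendritic cell (DC)-like cells, 130 vehicle and 158 LC427 mature regulatory DC-like cells, 313 vehicle and 421 LC427 CD8-like cells, 362 vehicle and 153 LC427 NK-like cells, 105 vehicle and 324 LC427 barcodes of a mixed T and myeloid cluster, and 181 vehicle and 369 LC427 cells of a cluster poor in the leucocyte gene Ptprc. This last cluster met the rule for tumour-like cells on 3 of 10 markers, Tm4sf1, Sox9 and Ankrd1. Its epithelial markers Krt18, Krt19 and Cldn4 had 0 UMIs, and Krt8 stood at 0.496 CPM in vehicle and 0.218 CPM in LC427. Its 7 fibroblast markers were uneven. The collagen gene Col3a1 was the highest of them, at 822 CPM in vehicle and 651 CPM in LC427. Col1a2 stood at 242 CPM in vehicle and 239 CPM in LC427, but Col1a1 at only 26.8 and 28.6 CPM. Dcn stood at 196 and 183 CPM, Pdgfrb at 34.5 and 30.6 CPM and Pdgfra at 14.6 and 12.7 CPM, and Lum had 0 UMIs. The fibroblast markers summed to 1336 CPM in vehicle and 1145 CPM in LC427, and the 10 tumour-like markers to 1349 and 1086 CPM. The data thus go against an epithelial tumour label, and the cells are called the Tm4sf1/Sox9 cluster. CD4 and regulatory T-like cells were too few to compare (81 and 87).

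The hypoxia response element bound by Hif1a holds the core ACGTG or GCGTG. The 250 bases before the first start that RefSeq lists for each gene (build GRCm38.p6) were searched for both cores on either strand, the palindrome CACGTG counting once on each strand. A start was listed for 32 members, and 25 of these windows held a core, against 38.6% of the windows of 27025 genes. Those genes were not matched to the members for base content or expression. By role, a core was found for 11 of 16 enzymes, 8 of 10 hypoxia genes, 3 of 3 transporters and 3 of 3 regulators. The windows below belong to Gapdh, the enzyme with the widest gap between libraries, to Ldha, an enzyme with more matches and a smaller gap, and to Bnip3 and Egln3, hypoxia genes that were lower in LC427. They lie at chr6:125165774-125166023 (minus strand), chr7:46845554-46845803 (plus), chr7:138909507-138909756 (minus) and chr12:54203875-54204124 (minus). Each is written along the gene's strand with the cores in capitals.
Gapdh: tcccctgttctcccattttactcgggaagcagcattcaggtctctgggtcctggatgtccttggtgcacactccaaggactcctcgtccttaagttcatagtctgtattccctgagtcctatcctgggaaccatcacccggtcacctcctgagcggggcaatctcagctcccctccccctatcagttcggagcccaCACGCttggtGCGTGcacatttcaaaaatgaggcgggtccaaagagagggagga
Ldha: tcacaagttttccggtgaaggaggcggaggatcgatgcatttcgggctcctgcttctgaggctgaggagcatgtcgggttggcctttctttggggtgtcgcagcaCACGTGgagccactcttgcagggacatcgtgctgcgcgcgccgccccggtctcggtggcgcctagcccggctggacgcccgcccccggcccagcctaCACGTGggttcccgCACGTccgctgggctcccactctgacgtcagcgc
Bnip3: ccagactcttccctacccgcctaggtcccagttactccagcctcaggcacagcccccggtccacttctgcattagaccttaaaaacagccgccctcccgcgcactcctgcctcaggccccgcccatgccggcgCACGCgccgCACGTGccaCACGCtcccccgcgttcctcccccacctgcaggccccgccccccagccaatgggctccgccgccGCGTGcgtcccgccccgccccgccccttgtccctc
Egln3: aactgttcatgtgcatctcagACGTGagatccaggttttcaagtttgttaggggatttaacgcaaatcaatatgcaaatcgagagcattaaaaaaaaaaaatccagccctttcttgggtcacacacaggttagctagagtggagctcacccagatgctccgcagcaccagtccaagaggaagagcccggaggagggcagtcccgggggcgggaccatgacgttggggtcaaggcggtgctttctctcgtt
The Gapdh window held 2 matches, 54 and 44 bases before the start. The Ldha and Bnip3 windows held 5 each, and the Egln3 window held 1, at 229 bases before the start. The windows at the first listed starts of Vegfa and Hilpda held 0, while another listed start of each held 2 and 3. The same held for the enzymes Hk1, Aldoa and Pkm, with 0 at the first start and 3, 1 and 1 at another. A match is a run of letters, and binding was not measured.

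The classes differed first in which form of a protein they carried. Slc2a3, the high-affinity glucose carrier, was a lymphocyte gene here, at 79.9 CPM in the vehicle library and 68.5 CPM in the LC427 library in CD8-like cells and 46.1 and 16 CPM in NK-like cells. In macrophage-like cells it had 11 and 13 UMIs, or 0.719 and 1.11 CPM. The widespread carrier Slc2a1 had the opposite order, with 89.7 and 69.1 CPM in macrophage-like and 30.3 and 26.1 CPM in CD8-like cells.

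The lactate carriers also differed between classes. Slc16a3, which exports lactate from glycolytic cells, stood at 211 CPM in the vehicle library and 182 CPM in the LC427 library in macrophage-like cells. It was at 59.2 and 52.2 CPM in CD8-like cells and 37 and 24.9 CPM in the Tm4sf1/Sox9 cluster. Slc16a1, which carries lactate and pyruvate across the membrane, was highest in CD8-like cells at 37 and 46.8 CPM, 4.26-fold in vehicle and 4.71-fold in LC427 above macrophage-like cells. Its LC427 level in NK-like cells was 38.3 CPM on 12 UMIs, with an interval that overlapped that of CD8-like cells.

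Hexokinases and phosphofructokinases were class-bound too. Hk3, the myeloid hexokinase, stood at 154 CPM in the vehicle library and 193 CPM in the LC427 library in macrophage-like cells and at 2.48 and 1.09 CPM in the Tm4sf1/Sox9 cluster. Hk1, the housekeeping form, had its highest vehicle level in CD8-like cells (104 CPM, against 39.8 CPM in macrophage-like cells) but not its highest LC427 level (43.5 CPM, against 57 CPM in the Tm4sf1/Sox9 cluster). Pfkp, the platelet form of phosphofructokinase, was highest in conventional DC-like cells at 339 and 315 CPM, 3.67-fold in vehicle and 2.98-fold in LC427 above macrophage-like cells. Pfkm, the muscle form, was measured only in macrophage-like cells and the Tm4sf1/Sox9 cluster among the 7 classes, and was 3.13-fold in vehicle and 4.54-fold in LC427 higher in the latter.

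Mature regulatory DC-like cells led in a regulator and, in LC427, in a hypoxia gene. Pfkfb3, which makes the activator of phosphofructokinase, was at 122 CPM in the vehicle library and 115 CPM in the LC427 library, 4.09-fold in vehicle and 4.92-fold in LC427 above macrophage-like cells. Ndrg1, a stress-responsive gene, was at 198 and 356 CPM, 2.39-fold in vehicle and 3.89-fold in LC427 above them. In the Tm4sf1/Sox9 cluster Ndrg1 was 2.36-fold in vehicle and 1.69-fold in LC427 above macrophage-like cells. The vehicle intervals of these 2 classes overlapped. For comparisons with macrophage-like cells, a gene was measured if it had at least 20 UMIs in each library over both classes together. Members scarce in the smaller class could thus count through macrophage-like cells. Of 32 members measured this way, 25 were at least 1.5-fold lower than in macrophage-like cells in both libraries (22.4% of genes were). Another 2 were higher (16.5%). Only 21 members were measured within mature regulatory DC-like cells themselves. The lower call of Pfkm rested on 0 UMIs there, with intervals of 0 to 1.08 in vehicle and 0 to 1.56 in LC427.

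The lymphocyte classes also sat mostly below macrophage-like cells. Measured genes in the counts below follow the same rule, over the class and macrophage-like cells together. In NK-like cells 25 of 32 members were lower in both libraries (18.3% of genes) and 0 higher (16.9%), and in CD8-like cells 21 of 33 were lower (19.9%) and 3 higher (27.7%), these being Slc2a3, Slc16a1 and Pfkp. Conventional DC-like cells had 11 of 32 lower (11.1%) and 1 higher (8.69%), which was Pfkp. In the Tm4sf1/Sox9 cluster 11 of 32 were lower (19.8%) and 3 higher (39.2%), these being Slc16a1, Pfkm and Ndrg1.

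**Figure D1:**
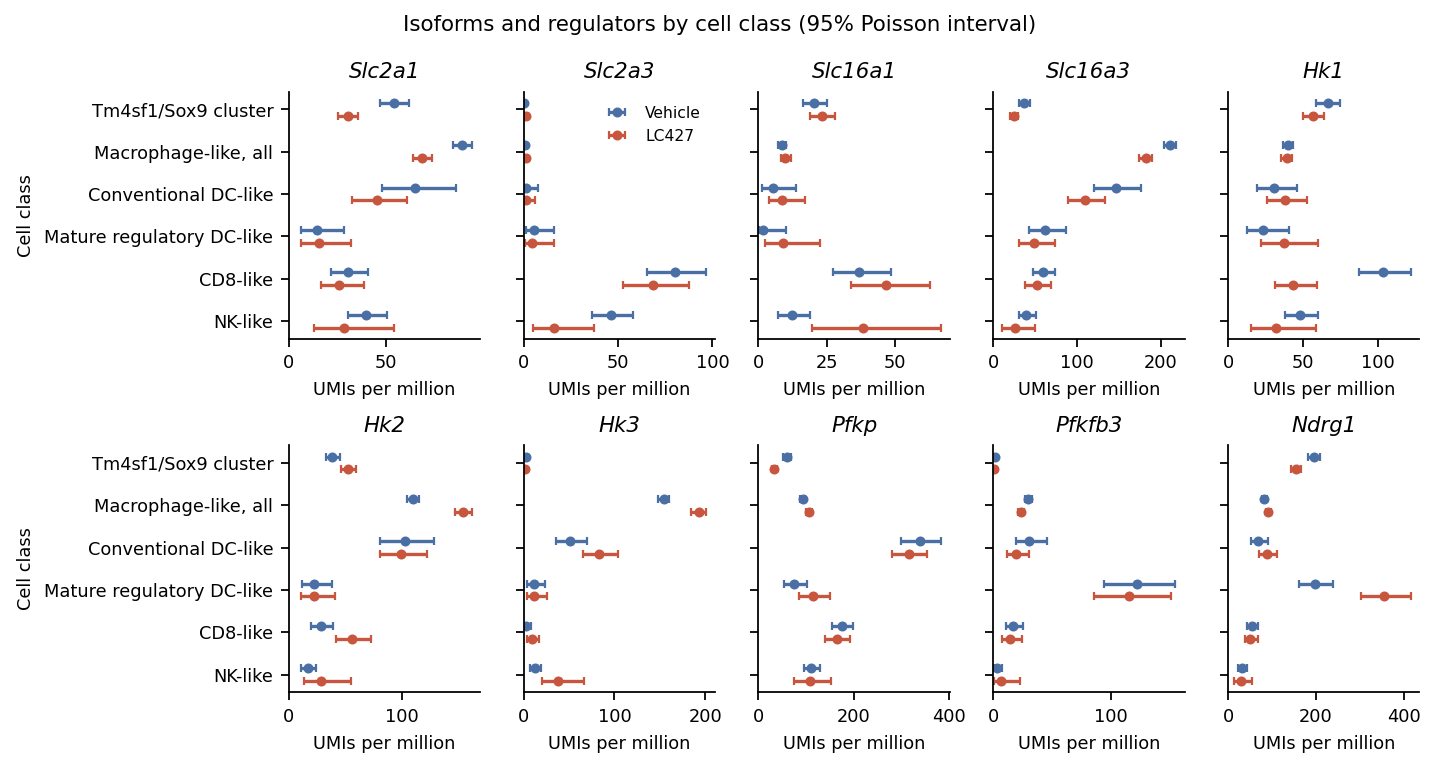
Level in CPM (x axis of each panel) for 10 transporters, enzymes, regulators and hypoxia genes in 6 cell classes, with 1 point per library and bars for the 95% Poisson interval. Slc2a3 lies near 0 in macrophage-like cells and at 79.9 and 68.5 CPM in CD8-like cells, and Pfkfb3 is highest in mature regulatory DC-like cells. Ndrg1 is highest there in LC427, while in vehicle its interval overlaps that of the Tm4sf1/Sox9 cluster.

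The treatment comparison asks which of these genes differed between tumours with and without LC427. In macrophage-like cells Gapdh stood apart from its pathway, with a ratio near that of the hypoxia genes Hilpda and Vegfa, while the other 15 enzymes stayed within 1.5-fold. All 34 members were measured, and 7 were lower in LC427 (6.26% of 11558 genes) and 1 higher (11%). The lower ones were Gapdh, Vegfa, Hilpda, Bnip3, Ankrd37, Egln3 and Adm, and the higher one was Slc2a3 with the few UMIs given above. Bnip3 and Ankrd37 lay close to the threshold and came within 1.5-fold in thinned cells and with equal weight per cell or per cluster, with log2 ratios of -0.48 and -0.54 in the last of these. The median log2 ratio was -0.18 over the members and 0.13 over all genes measured, and with ratios scaled to that of all genes 8 members were lower and 0 higher.

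Gapdh, glyceraldehyde-3-phosphate dehydrogenase, stood at 2019 CPM in the vehicle library and 983 CPM in the LC427 library in macrophage-like cells, a ratio of 0.487 (0.476 to 0.497). It ranked 4 from the lowest ratio among 171 genes with at least 1000 CPM in 1 library. At an equal depth of 1000 UMIs per cell, the mean was 1.68 Gapdh UMIs per vehicle cell and 0.867 per LC427 cell. In droplets without a cell (empty droplets, 10 to 100 UMIs) it stood at 1015 and 801 CPM, a log2 ratio of -0.34, against -1.04 in the cells.

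The enzymes before Gapdh lay closer to equal. Hk2, the inducible hexokinase, was at 109.6 and 154 CPM, a ratio of 1.41 (1.31 to 1.5), and Hk3 at 154 and 193 CPM, a ratio of 1.25 (1.18 to 1.32). Hk1 was level at 39.8 and 39.1 CPM, as was the isomerase Gpi1 at 465 and 469 CPM. Both inducible and myeloid hexokinases thus had ratios above 1 while that of Gapdh was below it.

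Among the phosphofructokinases, Pfkl was at 94.4 and 86.4 CPM, Pfkp at 92.5 and 106 CPM and Pfkm, on 97 and 63 UMIs, at 6.34 and 5.39 CPM. Aldoa, the main aldolase, came next to Gapdh with 801 and 567 CPM and a ratio of 0.708 (0.687 to 0.729). Its relative Aldoc was at 42.2 and 37.1 CPM and the triose isomerase Tpi1 at 466 and 387 CPM. None of these passed 1.5-fold.

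The enzymes after Gapdh were slightly lower except for the last kinase. Pgk1, which makes the first ATP, was at 649 and 575 CPM, a ratio of 0.885 (0.858 to 0.913). The mutase Pgam1 was at 435 and 322 CPM (ratio 0.742) and the enolase Eno1 at 867 and 764 CPM (ratio 0.882). Pkm, the pyruvate kinase of most tissues, was at 1029 and 1185 CPM, a ratio of 1.15 (1.13 to 1.18). Ldha, which makes lactate, was at 765 and 674 CPM (ratio 0.881). The median log2 ratio of the 15 other enzymes was -0.18, and that of Gapdh minus this median was -0.86.

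**Figure D2:**
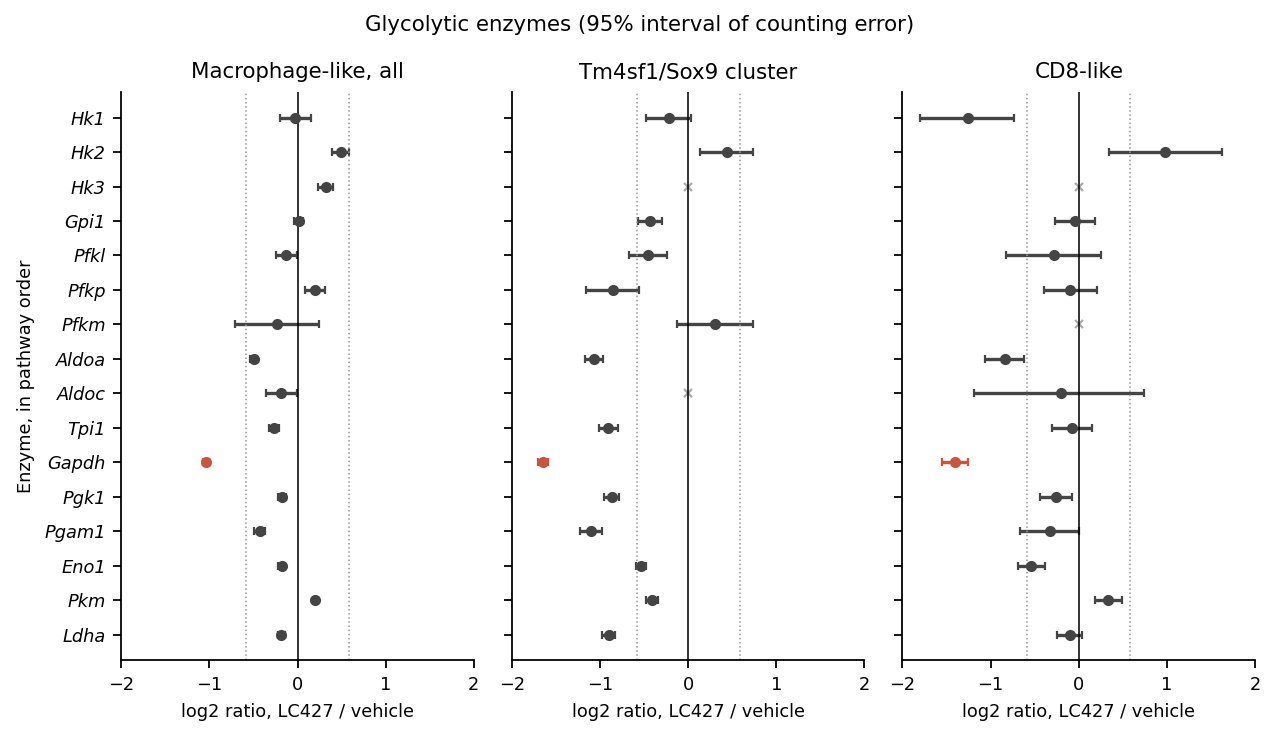
log2 ratio of LC427 to vehicle (x axis) for the 16 glycolytic enzymes in pathway order (y axis) in macrophage-like cells, the Tm4sf1/Sox9 cluster and CD8-like cells, with bars for the 95% interval of counting error, dotted lines at 1.5-fold and grey crosses for genes under 20 UMIs. Gapdh lies at -1.04, -1.65 and -1.40 and is the leftmost measured enzyme in each panel.

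Gapdh was lower in every class compared, and its vehicle and LC427 intervals overlapped in none of the 7 classes or 8 macrophage clusters. In the Tm4sf1/Sox9 cluster it stood at 2255 CPM in the vehicle library and 719 CPM in the LC427 library, a ratio of 0.319 (0.306 to 0.332), the lowest of 152 genes with at least 1000 CPM in 1 library. CD8-like cells had 1274 and 482 CPM, a ratio of 0.378 (0.34 to 0.42), and NK-like cells 1077 and 299.9 CPM, a ratio of 0.279 (0.224 to 0.343). The intervals of these lymphocyte ratios lay below that of macrophage-like cells.

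Dendritic and mixed cells had the same direction. Conventional DC-like cells had 1377 and 613 CPM (ratio 0.445), mature regulatory DC-like cells 1027 and 551 CPM (ratio 0.536) and the mixed T and myeloid cluster 1341 and 809 CPM (ratio 0.604). In LC427 all classes but macrophage-like cells and the mixed cluster lay below the 801 CPM of droplets without a cell. In vehicle no class lay below the 1015 CPM of those droplets. The part of RNA from outside the cells was not tested. The log2 ratio of Gapdh was the lowest of all measured enzymes in 4 of 7 classes and in 5 of 8 macrophage clusters. In each of the others 1 enzyme lay below it, such as Aldoc with 24 and 1 UMIs in NK-like cells and Pfkl with 22 and 7 UMIs in mature regulatory DC-like cells.

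The order of the classes by Gapdh level differed between libraries. In vehicle the Tm4sf1/Sox9 cluster was highest, then macrophage-like cells, then conventional DC-like, mixed and CD8-like cells, whose intervals overlapped, then NK-like and mature regulatory DC-like cells, which overlapped as well. In LC427 macrophage-like cells came first and NK-like cells last. Among macrophage clusters, the one led by Hspa1b and Hspa1a was highest in both libraries (2880.3 and 1551 CPM) and the one led by Plac8 and Gm9733 lowest (869 and 490.1 CPM), with ratios of 0.538 and 0.564.

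**Figure D3:**
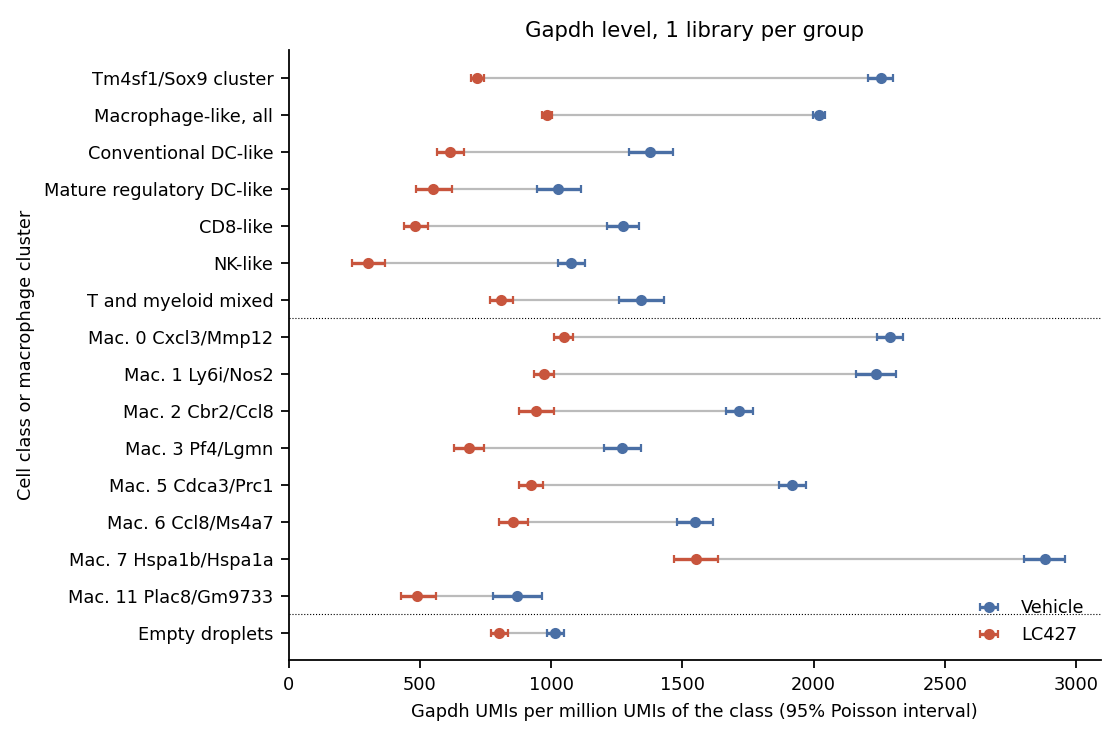
Gapdh level in CPM (x axis) in 7 cell classes, 8 macrophage clusters and droplets without a cell (y axis), with 1 point per library and bars for the 95% Poisson interval. The LC427 point lies left of the vehicle point in every row, and the gap is smallest in droplets without a cell (1015 and 801 CPM).

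Transcript length moved with the ratios. Across 11470 genes of macrophage-like cells Spearman's rho between the log2 ratio and transcript length was 0.20, and across 10871 genes of the Tm4sf1/Sox9 cluster it was 0.27; genes share libraries and are not replicates. Among genes of 1000 to 1500 nucleotides, which include Gapdh, the median log2 ratio was -0.01 in macrophage-like cells and -0.29 in the Tm4sf1/Sox9 cluster, and 9.96% and 24.2% of them were lower. Of the hypoxia genes lower in macrophage-like cells, Hilpda (820 nucleotides), Ankrd37 (927), Vegfa (1143), Bnip3 (1237.5) and Adm (1390) were short, and Egln3 (2662) was longer. Among those within 1.5-fold, Ndrg1 (2889), P4ha1 (2918), Egln1 (3594) and Hif1a (4385) were longer, and Higd1a (1346.5) was short. In the Tm4sf1/Sox9 cluster the lower enzymes were under 2000 nucleotides except Pfkp (3412). Those within 1.5-fold were longer except Eno1 (1964.5). Gapdh and several other enzymes have processed copies in the mouse genome, and UMIs of near-identical copies cannot be told apart. The part of transcript length, depth per cell and mitochondrial share in these differences was not tested.

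The hypoxia genes of macrophage-like cells formed a lower and a level group. Vegfa, the vascular growth factor, stood at 312 CPM in the vehicle library and 166 CPM in the LC427 library, a ratio of 0.533 (0.505 to 0.562). Hilpda, which holds back lipid breakdown on lipid droplets, stood at 214 and 105 CPM, a ratio of 0.489 (0.457 to 0.522). Bnip3, a mitophagy receptor, stood at 263 and 173 CPM, a ratio of 0.66 (0.625 to 0.696). All of these intervals lay below 1.

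Genes of lower level followed. Ankrd37, an ankyrin repeat gene, was at 53.6 and 34 CPM, a ratio of 0.634 (0.561 to 0.716). Egln3, a prolyl hydroxylase that marks Hif1a for degradation, was at 34.7 and 13.3 CPM, a ratio of 0.382 (0.318 to 0.458). The peptide hormone gene Adm had 45 and 8 UMIs. The level group held Hif1a itself at 398 and 463 CPM (ratio 1.16), a gene controlled mainly at the protein level, which was not measured.

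The rest of that group also stayed within 1.5-fold. The hydroxylase Egln1 was at 83.2 and 68.1 CPM (ratio 0.818), the collagen hydroxylase P4ha1 at 84.9 and 84.8 CPM, the mitochondrial gene Higd1a at 285 and 264 CPM and Ndrg1 at 83 and 91.5 CPM. Of the regulators, Pfkfb3 was at 29.8 and 23.4 CPM (ratio 0.784), Pfkfb4 at 29.3 and 37.9 CPM (ratio 1.29) and Pdk1, which keeps pyruvate out of the mitochondria, at 50.8 and 58.1 CPM (ratio 1.14). The transporters Slc2a1 and Slc16a3 had ratios of 0.77 and 0.864, and Slc16a1 1.14.

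Vegfa and Hilpda were also lower in LC427 outside cells. In droplets without a cell Vegfa was at 169.6 and 85.7 CPM and Hilpda at 79.7 and 48.7 CPM. At 1000 UMIs per cell a Vegfa UMI was found in 24.2% of vehicle cells and 14.8% of LC427 cells in the macrophage-like class, and in 1.92% of vehicle cells and 0.475% of LC427 cells in the CD8-like class. Without thinning the shares were 52.2% of vehicle cells and 27.3% of LC427 cells and 5.43% of vehicle cells and 0.95% of LC427 cells, at a median depth of 3624 UMIs in vehicle and 2282 UMIs in LC427 in macrophage-like cells and of 3307 UMIs in vehicle and 1733 UMIs in LC427 in CD8-like cells. The 13 macrophage markers, all seen in both libraries, summed to 16468 CPM in vehicle and 11906 CPM in LC427 in macrophage-like cells, and the 5 B cell markers to 58.2 CPM in vehicle and 11 CPM in LC427. Their part in the differences was not tested.

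Within macrophage-like cells Vegfa and Hilpda were both lower in 6 of the 8 clusters compared, and clusters 15 and 17 had too few cells to compare. The makeup of the class differed as well: the cluster led by Ly6i and Nos2 made up 11.1% of vehicle and 24.1% of LC427 macrophage-like cells, and the one led by Cbr2 and Ccl8 16.8% and 6.04%. Vegfa was lower in 6 of 8 clusters, with ratios from 0.233 to 0.765 over all of them. Hilpda was lower in 6 of 8, with ratios from 0.286 to 1.1. Of the clusters that measured them, Egln3 was lower in 5 of 6, Ankrd37 in 5 of 7 and Bnip3 in 3 of 8.

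The Ly6i/Nos2 cluster, led by genes of inflammatory myeloid cells, had the highest Hif1a of the macrophage clusters in both libraries (726 and 662 CPM), although its LC427 interval overlapped that of the Plac8/Gm9733 cluster. Hilpda was at 157 and 48.7 CPM (ratio 0.31) there and Vegfa at 398 and 173 CPM (ratio 0.435). Bnip3 was at 266 and 148 CPM (ratio 0.554) and Aldoc at 72.2 and 44.7 CPM (ratio 0.619). In all, 8 of 32 measured members were lower (6.67% of genes) and 0 higher (18.6%), and Gapdh had its lowest ratio among macrophage clusters, at 2236 and 973 CPM (ratio 0.435).

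In the Cxcl3/Mmp12 cluster 7 of 32 were lower (5.84%) and 0 higher (14.9%). Gapdh was at 2290.2 and 1047 CPM, Vegfa at 419 and 234 CPM and Hilpda at 261 and 127 CPM. Aldoa, at 893 and 592 CPM, was among the lower genes here, and so was Ankrd37 at 67.5 and 44.6 CPM. Pfkfb3 and Egln3, under 50 CPM, completed the list.

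In the Cbr2/Ccl8 cluster, whose leading genes include the resident macrophage genes Folr2 and Mrc1, 9 of 32 were lower (8.67%) and 0 higher (16.7%). Vegfa was at 197 and 62.4 CPM (ratio 0.316), Hilpda at 164 and 74.9 CPM (ratio 0.456) and Bnip3 at 286 and 154 CPM (ratio 0.537). Gapdh was at 1716 and 942 CPM (ratio 0.549). The other 5 lower genes, Slc2a1, Pfkfb3, Aldoc, Ankrd37 and Egln3, were under 50 CPM in both libraries.

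The cycling cluster, led by the mitotic genes Cdca3 and Prc1, had 8 of 31 lower (7.94%) and 0 higher (12.4%). It had the lowest ratios of the clusters for Vegfa, at 214 and 49.8 CPM with a ratio of 0.233 (0.183 to 0.294), and Hilpda, at 128 and 36.5 CPM (ratio 0.286). Gapdh was at 1919 and 922 CPM (ratio 0.481), Aldoa at 721 and 464 CPM (ratio 0.643) and Bnip3 at 192 and 112 CPM (ratio 0.581). Slc2a1 was at 70.4 and 36.5 CPM (ratio 0.518) and Ankrd37 at 51.3 and 29.2 CPM (ratio 0.569).

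Slc2a1, the carrier that lets glucose in, was lower in 4 of 8 clusters. In the Pf4/Lgmn cluster it was at 66.4 and 29.2 CPM (ratio 0.44) and in the Ccl8/Ms4a7 cluster at 65.8 and 28.2 CPM (ratio 0.429). The Pf4/Lgmn cluster had 6 of 30 lower (5.29%) and 1 higher (24.9%), with Gapdh at 1269 and 685 CPM, Vegfa at 254 and 87.6 CPM and Hilpda at 142 and 75.5 CPM, and Pdk1 the higher one at 43.9 and 66.9 CPM. The Ccl8/Ms4a7 cluster had 5 of 30 lower (9.88%) and 1 higher (13.1%), with Gapdh at 1548 and 854 CPM, Vegfa at 139 and 51 CPM and Hilpda at 94 and 35.5 CPM, and Pfkfb4, under 50 CPM, the higher one. Hk2 and Pkm had ratios above 1 in all 8 clusters, from 1.15 to 1.73 and from 1.03 to 1.33.

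The pair of clusters in which Vegfa and Hilpda were not called lower were unlike each other. The Hspa1b/Hspa1a cluster, with the heat shock genes of its name, Mmp13 and Hmox1 in the lead, held the most Vegfa, Hilpda, Bnip3, Ankrd37 and Egln3 of the 8 clusters in both libraries. Vegfa was at 498 and 381 CPM (ratio 0.765), Hilpda at 504 and 422 CPM (ratio 0.839) and Bnip3 at 485 and 428 CPM (ratio 0.882). Gapdh was its single lower member (10% of genes were lower), at 2880.3 and 1551 CPM (ratio 0.538). It had 3 higher (14.1%), Hk2 at 135 and 205 CPM, Ndrg1 at 163 and 256 CPM and Pfkfb4, under 50 CPM. The 5 B cell markers summed to 309.6 CPM in vehicle and 3.45 CPM in LC427 in this cluster and the 6 T cell markers to 6.47 CPM in vehicle and 24.2 CPM in LC427, and their part was not tested.

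The Plac8/Gm9733 cluster, which also carries the monocyte gene Ly6c2, had Vegfa at 163 and 115 CPM and Hilpda at 48.3 and 52.9 CPM, both within 1.5-fold. In this cluster 2 of 27 measured members were lower (12.8%), Gapdh and Hk1 (at 53.3 and 27.6 CPM). Another 5 were higher (14.9%), Hk2 at 107 and 184 CPM, Hk3 at 145 and 230.1 CPM, Pfkfb4 at 40.6 and 69 CPM, P4ha1 at 45.7 and 73.6 CPM and Pdk1, under 50 CPM. It had only 158 vehicle and 246 LC427 cells, and the interval of each of these higher ratios other than those of Hk2 and Hk3 included 1.

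**Figure D4:**
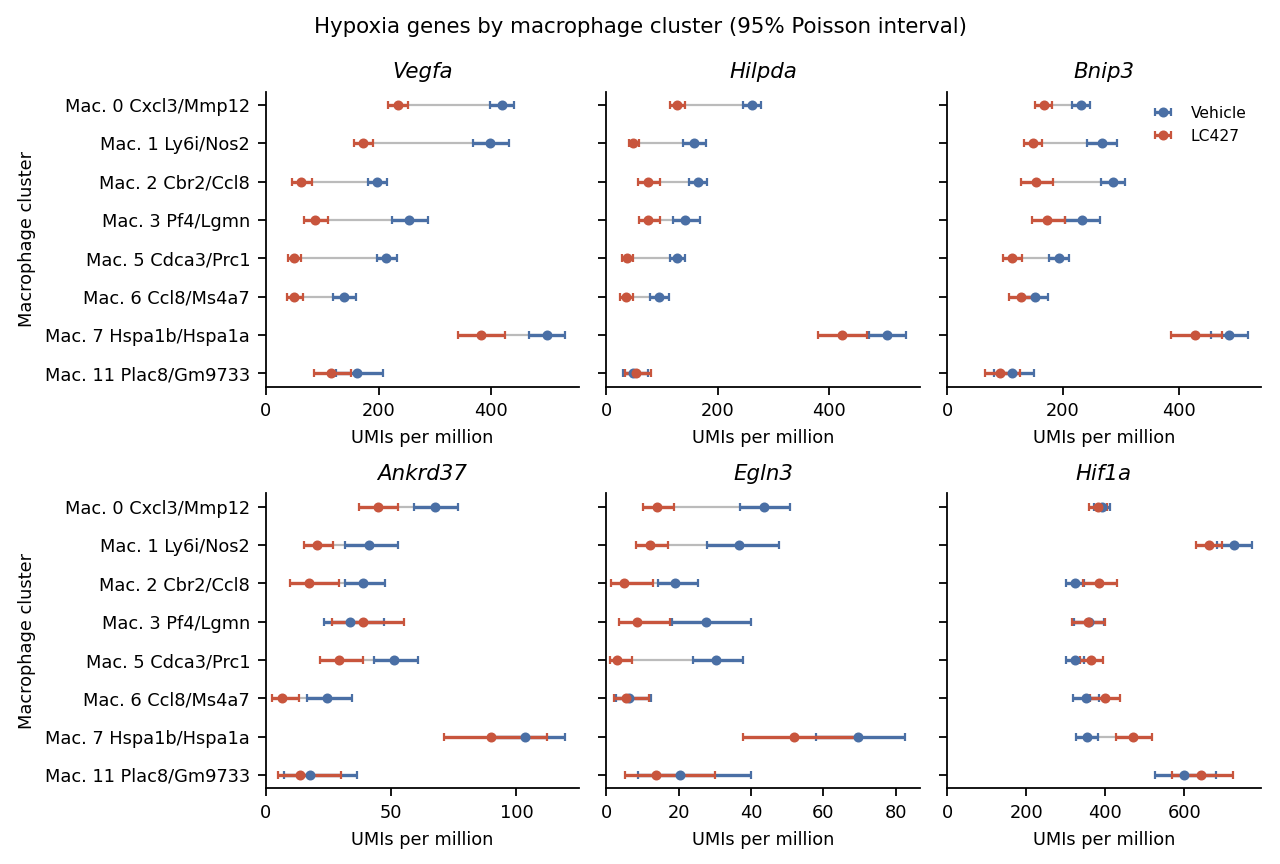
Level in CPM (x axis of each panel) for 6 hypoxia genes in 8 macrophage clusters (y axis), with 1 point per library and bars for the 95% Poisson interval. The Hspa1b/Hspa1a cluster is highest for every gene but Hif1a, and Vegfa lies lower in LC427 in all clusters, for example at 398 and 173 CPM in the Ly6i/Nos2 cluster.

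In the Tm4sf1/Sox9 cluster most of the set was lower, not Gapdh alone. Of 29 members measured, 16 were lower (10.4% of 10956 genes) and 0 higher (8.59%). Their median log2 ratio was -0.70, against 0.02 over all genes. By role, 7 of 14 enzymes, 7 of 10 hypoxia genes, 1 of 3 transporters and 1 of 2 regulators measured were lower. The median over the enzymes other than Gapdh was -0.54, and Gapdh minus this median was -1.11.

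Ldha, the lactate maker, was at 1047 CPM in the vehicle library and 561 CPM in the LC427 library in cells of this cluster, a ratio of 0.535 (0.51 to 0.563). Pgk1 was at 751 and 411 CPM (ratio 0.548) and Pgam1 at 397 and 185 CPM (ratio 0.466). Aldoa was at 538 and 256 CPM (ratio 0.477), Tpi1 at 456 and 244 CPM (ratio 0.534) and Pfkp at 59.5 and 33 CPM (ratio 0.554). Eno1 and Pkm stayed within 1.5-fold, with 1481 and 1019 CPM (ratio 0.688) and 1007 and 757 CPM (ratio 0.752), and Hk2 had a ratio of 1.35. The carrier Slc2a1 was at 54.3 and 30.4 CPM (ratio 0.559). Of these lower calls, that of Slc2a1 was lost with equal weight per cell (log2 ratio -0.34) and that of Tpi1 in thinned cells (-0.34).

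Its hypoxia genes were lower in the same way. Bnip3 was at 209 and 92.2 CPM (ratio 0.441), Vegfa at 261 and 161 CPM (ratio 0.614) and Higd1a at 400.4 and 225 CPM (ratio 0.561). Ankrd37 was at 56.1 and 19 CPM (ratio 0.339) and Egln1 at 119.6 and 72.5 CPM (ratio 0.606), which came within 1.5-fold in thinned cells (log2 ratio -0.42). Hilpda, Egln3 and the regulator Pdk1, under 50 CPM, were lower too, while Hif1a was at 108 and 138 CPM (ratio 1.28). Cells of this cluster had a median of 21188 UMIs in vehicle and 10928 UMIs in LC427, and the 13 macrophage markers, all seen, summed to 446 CPM in vehicle and 155 CPM in LC427. Their part in the result was not tested.

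Both lymphocyte classes had less Aldoa and Hilpda beside Gapdh. In CD8-like cells 7 of 29 measured members were lower (11% of 7815 genes) and 1 higher (13.4%). Aldoa was at 460.4 and 258 CPM (ratio 0.56), Hilpda at 106 and 56.5 CPM (ratio 0.534) and Higd1a at 212 and 138 CPM (ratio 0.652). Hexokinases differed in opposite directions, Hk1 being at 104 and 43.5 CPM, a ratio of 0.42 (0.288 to 0.60), and Hk2 at 28.1 and 55.4 CPM, a ratio of 1.97 (1.27 to 3.08). In thinned cells Hk2 came within 1.5-fold, at a log2 ratio of 0.47. Hif1a, at 598 and 691 CPM, and Ldha, at 740.2 and 688 CPM, stayed within 1.5-fold. The lower call of Higd1a, and that of the low-level Ankrd37, turned when only cells with at least 2000 UMIs were used. In CD8-like cells the 13 macrophage markers summed to 736 CPM in vehicle and 516 CPM in LC427, and their part was not tested.

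In NK-like cells 12 of 29 were lower (16.2% of 6812 genes) and 4 higher (22.6%). Aldoa was at 420.3 and 169 CPM, a ratio of 0.402 (0.298 to 0.533), and Tpi1 at 239.9 and 159.5 CPM (ratio 0.665). Hilpda was at 137 and 60.6 CPM (ratio 0.443), and under some alternatives it and Tpi1 came within 1.5-fold, to log2 ratios of -0.39 and -0.41. Vegfa was at 125 and 67 CPM (ratio 0.534). Pdk1 was higher at 14.7 and 57.4 CPM, a ratio of 3.9 (1.99 to 7.56), on 23 and 18 UMIs, and the other 3 higher genes, Slc16a1, Hk2 and Hk3, were under 50 CPM. The 13 macrophage markers summed to 823 CPM in vehicle and 842 CPM in LC427 in NK-like cells and the 4 endothelial markers to 145 CPM in vehicle and 35.1 CPM in LC427, and their part was not tested. The median depth was lower than in the other classes, at 2563 UMIs in vehicle and 1615 UMIs in LC427.

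Conventional DC-like cells pooled cluster 13 (98 vehicle and 213 LC427 cells) with cluster 16, led by Retnla and Ear2 (44 and 71 cells). In them 6 of 29 were lower (8.88% of genes) and 3 higher (14.9%). Aldoa was at 506 and 313 CPM (ratio 0.619), Bnip3 at 104 and 51.8 CPM (ratio 0.499) and Vegfa at 97.1 and 41 CPM (ratio 0.423), and Hk3 was the higher one above 50 CPM at 50.6 and 83.2 CPM (ratio 1.64). From cluster 13 alone the log2 ratio was -0.96 for Aldoa, -1.56 for Bnip3, -1.45 for Vegfa and 0.71 for Hk3. Under other alternatives Aldoa, Bnip3 and Hk3 came within 1.5-fold, at log2 ratios of -0.44, -0.26 and 0.53 at the closest to 0. The 13 macrophage markers summed to 3064 CPM in vehicle and 2654 CPM in LC427, the 9 conventional DC markers to 697 CPM in vehicle and 690.1 CPM in LC427 and the 6 mature regulatory DC markers to 373 CPM in vehicle and 177 CPM in LC427, and their part in the differences was not tested.

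In mature regulatory DC-like cells 3 of 21 were lower (10.3%) and 4 higher (17.9%), close to the shares of all genes. Vegfa was the lower one beside Gapdh above 50 CPM, at 50.9 and 13.3 CPM (ratio 0.261) on 28 and 6 UMIs.

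The higher genes of mature regulatory DC-like cells included Hif1a, at 269 and 416 CPM and a ratio of 1.54 (1.24 to 1.93). Ndrg1 was at 198 and 356 CPM, a ratio of 1.8 (1.4 to 2.31), and Pfkp at 74.5 and 115 CPM, a ratio of 1.54 (1.0 to 2.38). Each of these higher calls was lost under at least 1 alternative, the log2 ratio coming down to 0.48 for Hif1a (equal weight per cell), and to 0.53 for Ndrg1 and 0.46 for Pfkp (thinned cells). Marker sums of other cell types also differed in this class, those of macrophages being 505 CPM in vehicle and 851 CPM in LC427, of T cells 185 CPM in vehicle and 365 CPM in LC427, of neutrophils 124 CPM in vehicle and 17.7 CPM in LC427 and of B cells 67.3 CPM in vehicle and 13.3 CPM in LC427, and their part was not tested. Over the 7 classes the interval of the Hif1a ratio lay above 1 in 6.

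The mixed T and myeloid cluster, whose barcodes carry T cell genes beside antigen presentation genes such as H2-Ab1 and had a median depth of 5273 UMIs in vehicle and 3697 UMIs in LC427, had 4 of 31 lower (10.2%) and 3 higher (12.5%). Vegfa was at 179.8 and 73.6 CPM (ratio 0.409), Hk1 at 75.6 and 41.6 CPM (ratio 0.55) and Egln1 at 89.9 and 59.7 CPM (ratio 0.664), and Hk3 was higher at 58.5 and 98.3 CPM (ratio 1.68). Over all cells pooled, whose makeup differs between the libraries, 9 of 34 members were lower (7.65%) and 0 higher (8.6%). Gapdh and Vegfa were lower in each of the 7 classes. For Vegfa the CD8-like value rested on 27 and 4 UMIs, and with at least 2000 UMIs per cell the log2 ratio was -0.066. In CD8-like, NK-like and both DC-like classes Vegfa lay below its level in droplets without a cell, per UMI, in both libraries. In the mixed cluster it lay below that level in LC427 only. Vegfa was lower in LC427 in those droplets too, and the part of RNA from outside the cells was not tested. Of the classes that measured them, Aldoa was lower in 4 of 7, Bnip3 in 4 of 7, Hilpda in 4 of 6 and Ankrd37 in 5 of 6. The interval of the ratio lay below 1 in 6 classes for Aldoa, 4 for Bnip3, 4 for Hilpda and only 3 for Ankrd37. Eno1, Pkm and Gpi1 stayed within 1.5-fold in all 7.

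**Figure D5:**
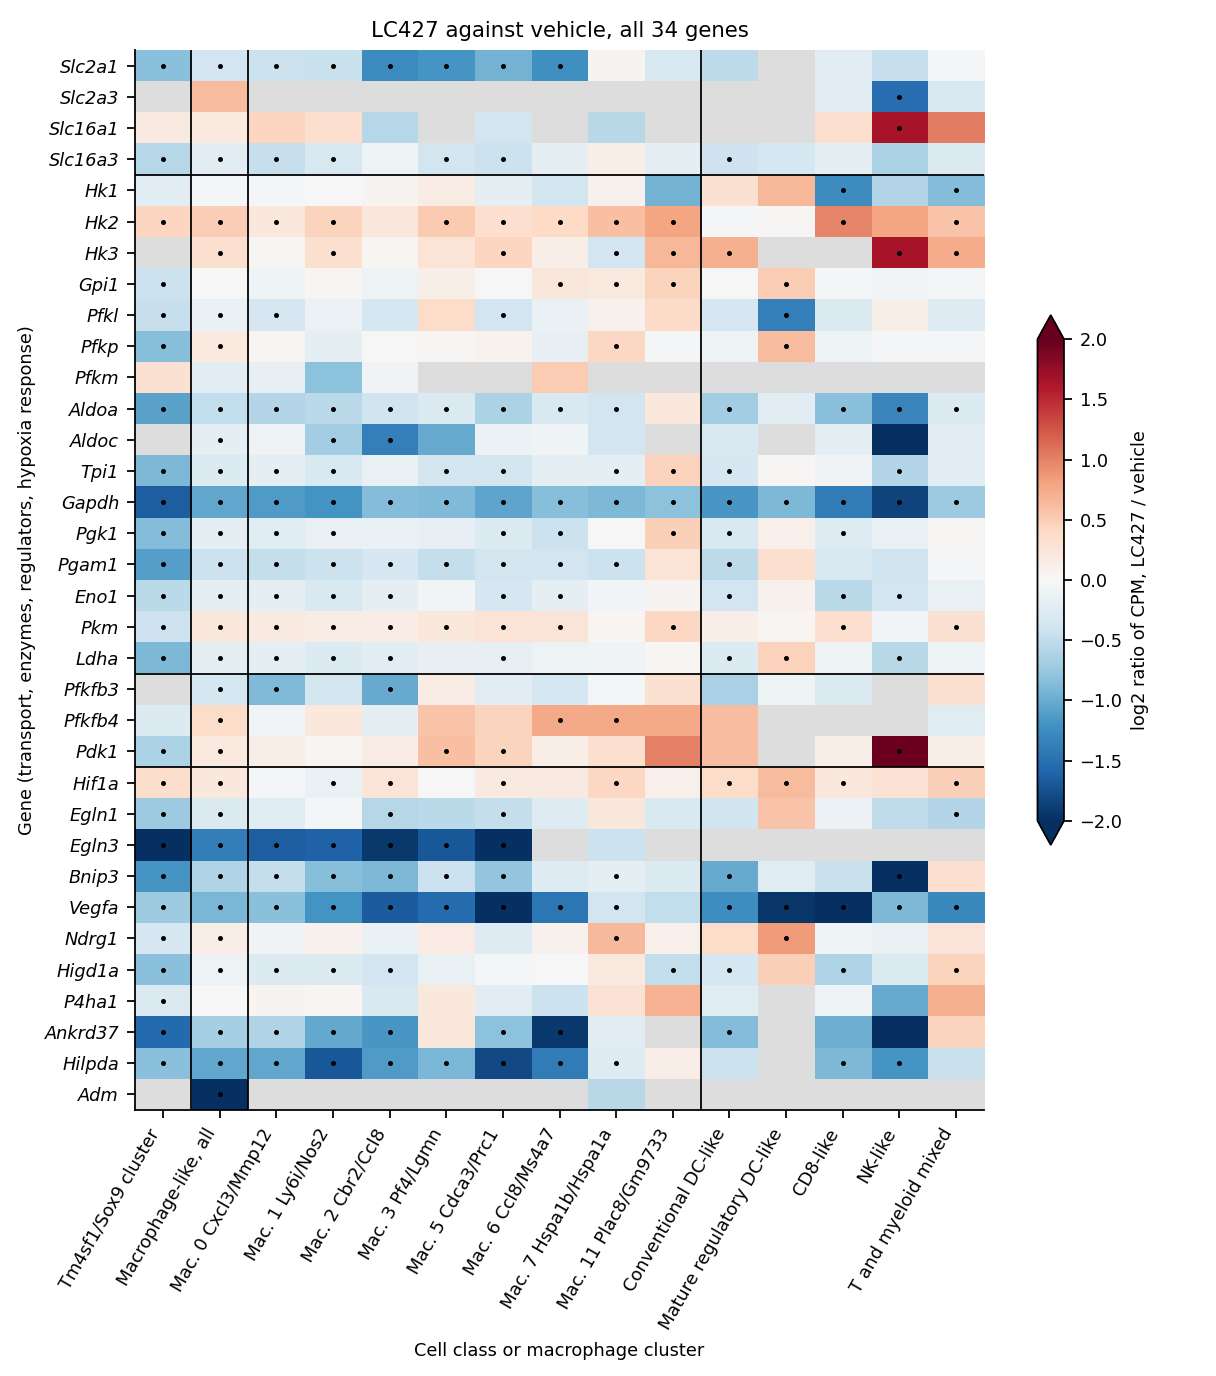
log2 ratio of LC427 to vehicle (colour, blue for lower and red for higher in LC427, limited to -2 and 2) for all 34 genes (rows, by role) in the classes and macrophage clusters (columns), with dots where the 95% interval excludes a ratio of 1 and grey where a gene had under 20 UMIs. The Gapdh row is blue in every column, and in the Hspa1b/Hspa1a column Gapdh is the only gene past 1.5-fold lower.

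Other genes of the pathway, 60 of a list of 61 found in the files, were counted in the same way. In macrophage-like cells 9 of 49 measured were lower (6.26% of all genes were) and 2 higher (11%). In the Tm4sf1/Sox9 cluster 7 of 45 were lower (10.4%) and 2 higher (8.59%). Mif, a cytokine gene known to respond to hypoxia, was at 1354 and 882 CPM in macrophage-like cells and 1785 and 1176 CPM in the Tm4sf1/Sox9 cluster. The transcriptional regulators Bhlhe40, at 156 and 103 CPM, and Mxi1, at 89.7 and 50.7 CPM, were lower in macrophage-like cells.

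In the Tm4sf1/Sox9 cluster Ddit4, a brake on growth signalling, was at 58.5 and 23.6 CPM and the mitochondrial gene Fam162a at 458 and 290.1 CPM, while Dlat, a subunit of pyruvate dehydrogenase, was higher at 50.1 and 75.6 CPM. CD8-like cells had 6 of 34 lower (11% of all genes) and 4 higher (13.4%), with Mif at 769.8 and 456 CPM. In NK-like cells the counts were no larger than the share of all genes: 4 of 32 were lower (16.2%), among them Epas1, a relative of Hif1a, with 95 and 2 UMIs, and 6 higher (22.6%), among them the pentose phosphate enzyme Tkt at 139 and 255 CPM.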

How the data were processed

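The authors deposited an unfiltered matrix of UMI counts per library over 32285 features. Cell Ranger 3.0.1, Seurat 3 and GRCm38 (mm10) are named per the submitters' processing notes, but Cell Ranger 4 is named per the file headers. The groups come from the treatment label.

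Barcodes with at least 1000 UMIs, 400 genes and at most 10% mitochondrial UMIs were used. Scrublet's automatic threshold called 0 doublets, so 220 vehicle and 320 LC427 barcodes with the highest scores were removed, a rate of 0.8% for every 1000 cells. Clustering used 2000 variable genes, 30 components, 20 neighbours and Leiden at resolution 1 (scanpy 1.11.5, leidenalg 0.10.2) without integration. Names came from fixed markers, and a cluster needed 3 of them in at least 10% of its cells. UMIs were summed per class. Intervals are exact Poisson (CPM), conditional binomial (ratios) and Clopper-Pearson (shares), computed with scipy 1.17.1 and checked on simulated counts. Values are given for members with at least 50 CPM in 1 library and a 1.5-fold ratio, and for every enzyme in macrophage-like cells. The members and lists were chosen with earlier results of these data known.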

Additional observations from a re-analysis of the deposited data

Results flagged for a closer look

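A pair of genes had opposite directions in different classes, each with its interval on 1 side of a ratio of 1. The log2 ratio of Pfkp, the platelet phosphofructokinase, was 1.48 higher in mature regulatory DC-like cells than in the Tm4sf1/Sox9 cluster. That of Pdk1, which keeps pyruvate out of the mitochondria, was 2.60 higher in NK-like cells than in the Tm4sf1/Sox9 cluster, where the NK-like value rests on 23 and 18 UMIs. The interval of the Pfkp ratio in mature regulatory DC-like cells began only just above 1. Its log2 ratio there came within 1.5-fold, at 0.46, in thinned cells. With 1 library per group neither difference between classes was tested.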

How the results depend on the processing

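Of 19 alternatives, 3 were chosen after seeing the data: equal weight per macrophage cluster, leaving out the small clusters 15 and 17, and conventional DC-like cells from cluster 13 alone. In macrophage-like cells the Gapdh log2 ratio stayed past 1.5-fold, at -0.96 with at least 2000 UMIs per cell, -0.99 with each library clustered alone, -0.96 with cells thinned to 1000 UMIs, -1.17 scaled to the median of all genes, -0.97 with equal weight per cell, -1.09 with the profile of empty droplets subtracted and -0.98 with equal weight per cluster. Gapdh minus the median of the other enzymes was -0.93 with at least 500 UMIs, -0.79 with at least 2000 and -0.90 with that profile subtracted. The median of the members was -0.31 when scaled and -0.13 with equal weight per cell. The number of members lower was 4 in thinned cells, 5 with equal weight per cell or per cluster and 6 with genes of at least 100 UMIs, against 7. The number higher was 0 with at least 500 or 2000 UMIs, when scaled, per cell, with empty droplets subtracted, with genes of at least 100 UMIs and per cluster, so the call of Slc2a3 did not hold there. In CD8-like cells with at least 2000 UMIs the log2 ratio was 0.21 for Ankrd37 and 0.063 for Higd1a, the reverse of the value in all cells. The cause of these shifts was not tested. Of 926 alternative values of the 64 called member ratios, 75 were under 1.5-fold or turned.

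The Tm4sf1/Sox9 cluster got no name with at least 2000 UMIs or at resolution 2, and with each library clustered alone it was named in vehicle only, so it has no value there. Single macrophage clusters and the mixed T and myeloid cluster were recomputed under no alternative. No paired analysis was possible because each group had 1 library. Intervals leave out variation between mice, and low-count genes such as Adm or Aldoc in NK-like cells are limited by depth.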
